A study of Homo sapiens with 11 samples.

Results

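The miR-221 and miR-222 cluster is a pair of miRNA hairpins on the human X chromosome that yields 4 mature miRNAs, hsa-miR-221-3p, hsa-miR-222-3p, hsa-miR-221-5p and hsa-miR-222-5p. All 4 were found by name among the 2588 mature miRNAs listed in the small RNA sequencing tables of 6 untreated human cancer cell lines. The members were chosen by name with their measured levels across these lines known, that is selected on level, so that the levels are given as a description without a test. A549 (lung), ES2 (ovary), MV3 (melanoma), HepG2 (liver) and BE(2)C (neuroblastoma) were sequenced in 2 libraries each and PANC1 (pancreas) in 1 library, 11 libraries in all. Each line carried no transfection or treatment in these libraries, and each stands for a tumour type by a single line. The libraries of A549, ES2, MV3 and PANC1 were prepared with a NEXTflex kit from 50 ng of total RNA, whereas those of HepG2 and BE(2)C were made by a commercial provider, so that effects of preparation and sequencing on one side and of the line on the other cannot be told apart between these 2 sets. Cells were harvested at 48 h, except that the treatment protocol of BE(2)C gives 24 h and its sample characteristics 48 h. The study measured miRNAs in these lines to relate miRNA abundance to mRNA targets.

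A miRNA hairpin is cut out of a longer transcript by Drosha and then by Dicer, and either strand of the resulting duplex, 5p or 3p, can be loaded into an Argonaute protein. The loaded strand pairs with mRNAs mainly through its seed, the stretch near its 5′ end, and lowers their stability or translation. MiR-221 and miR-222 are known as regulators of the cell cycle inhibitor CDKN1B (p27) and of the receptor KIT, and are described as abundant in many solid tumours.

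The mature sequences are shown because they carry what the 3p members share and what separates them. They were taken from RefSeq (GRCh38.p14), which matched 3 of the 4 members, and are written 5′ to 3′ with bases 2 to 8, the seed, in capitals.
hsa-miR-221-3p: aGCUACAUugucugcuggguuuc
hsa-miR-222-3p: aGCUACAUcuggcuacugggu
hsa-miR-222-5p: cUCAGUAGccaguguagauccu
The first 8 bases of hsa-miR-221-3p and hsa-miR-222-3p are identical, and beyond them the longest common stretch is 6 bases, at positions 15 to 20 of the former and 16 to 21 of the latter. Without gaps, 11 of the 21 positions that both share are identical. Among 2545 mature miRNAs of the same table, no further miRNA carries this seed, and no other miRNA carries the seed of hsa-miR-222-5p.

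In the GRCh38 annotation, MIR221 (ENSG00000207870.1) lies at chrX:45746157-45746266 and MIR222 (ENSG00000207725.3) at chrX:45747015-45747124, both on the minus strand and 748 bases apart. On the same strand, hsa-miR-221-3p occupies chrX:45746180-45746202, hsa-miR-222-3p chrX:45747036-45747056 and hsa-miR-222-5p chrX:45747073-45747094. Both hairpins lie in an intron of the transcript MIR222HG-201 of MIR222HG (ENSG00000270069.3), a long noncoding RNA gene at chrX:45745210-45770274, and 24 bases of MIR221 overlap an exon of MIR222HG-203. The neighbouring hairpins on the chromosome are MIR1587, 5908543 bases away, and MIR4769, 1840304 bases away. Those of their products that RefSeq lists, hsa-miR-1587 and hsa-miR-4769-5p, had 0 reads in all 11 libraries.

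Levels are given as CPM, the reads of a miRNA per 1000000 reads assigned to the listed miRNAs in the same library. All mean ± SD values are over the 2 libraries of a line, and PANC1 has no replicate. Between 1173902 reads (MV3 replicate 1) and 12137452 reads (HepG2 replicate 2) were assigned per library, which makes low values more precise in the latter. The lineage markers were checked in the same way. Neural hsa-miR-9-5p reached 15875 and 17555 CPM in BE(2)C and 1739 CPM in PANC1, whereas neural hsa-miR-124-3p was at only 17.7 and 28.1 CPM in BE(2)C. Hepatocyte hsa-miR-122-5p was at only 64.0 and 50.0 CPM in HepG2. The melanocyte lineage marker hsa-miR-211-5p had 0 reads in MV3 as in all other libraries. For the endocrine pancreas, hsa-miR-375 was at 26.8 CPM in PANC1 but at 6373 and 4866 CPM in BE(2)C. Epithelial hsa-miR-200c-3p ran from 14.5 to 83.2 CPM over all libraries, and epithelial hsa-miR-141-3p reached at most 4.79 CPM.

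hsa-miR-222-3p was the most abundant of the 4 members in every library except BE(2)C replicate 1, where it had the same number of reads as hsa-miR-221-3p. Its level was 55432 and 57520 CPM in ES2, 44646 and 45487 in MV3, 8603 and 8863 in A549, 7784 in PANC1, 241 and 311 in HepG2, and 9.31 and 1.22 in BE(2)C. ES2 and MV3 held the highest levels, with hsa-miR-222-3p at rank 4 of all miRNAs in each of their libraries, and no neighbouring lines in this order overlapped. The line means were 56476 ± 1476 CPM in ES2, 45066 ± 595 in MV3, 8733 ± 184 in A549, 276 ± 49.4 in HepG2 and 5.27 ± 5.72 in BE(2)C. In CPM, ES2 was thus 6.47-fold above A549 and 204-fold above HepG2.

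hsa-miR-221-3p, which shares its seed with hsa-miR-222-3p, was likewise highest in ES2 and MV3 and lowest in BE(2)C. It was at 24330 and 24876 CPM in ES2, 20462 and 17051 in MV3, 5379 in PANC1, 4146 and 4103 in A549, 148 and 179 in HepG2, and 9.31 and 0.459 in BE(2)C. No neighbouring lines overlapped here either, but PANC1 stood above A549, the reverse of their order for hsa-miR-222-3p. The line means were 24603 ± 386 CPM in ES2, 18756 ± 2412 in MV3, 4124 ± 30.1 in A549, 163 ± 22.3 in HepG2 and 4.88 ± 6.26 in BE(2)C. The rank of hsa-miR-221-3p among all miRNAs ran from 8 in ES2 replicate 2 over 25 in both A549 libraries and 30 in PANC1 to 57 and 61 in HepG2 and 405 and 832 in BE(2)C.

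hsa-miR-221-5p, the opposite strand of the MIR221 duplex, was at 1653 and 1448 CPM in ES2, 833 and 1026 in MV3, 181 and 252 in A549, 138 in PANC1, 38.0 and 56.8 in HepG2, and 1.20 and 0 in BE(2)C. Its order of lines was that of hsa-miR-222-3p, again without overlap, and ES2 was 32.7-fold above HepG2 compared with 151-fold for hsa-miR-221-3p. hsa-miR-222-5p, the opposite strand of MIR222, was the least abundant member wherever it was detected. It was at 112 and 97.2 CPM in ES2, 68.1 and 65.2 in MV3, 10.9 in PANC1, 8.61 and 7.28 in A549, and 0.505 and 0.412 in HepG2, where it rested on 6 and 5 reads. No read of it was found in either BE(2)C library. For 0 reads the upper limit was set at 3 reads, or 0.213 CPM over both BE(2)C libraries, so that ES2 was at least 490-fold higher.

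**Figure D1:**
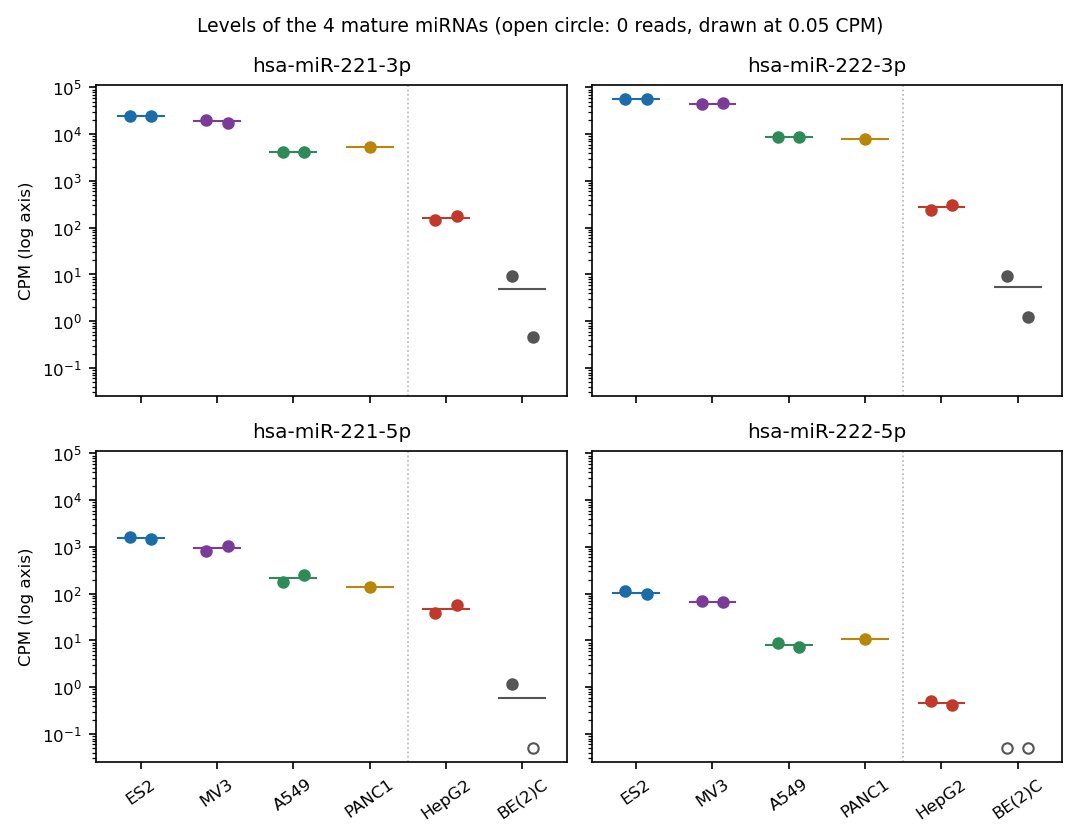
Level of each of the 4 members in CPM (log axis) by cell line, with 1 point per library and a bar at the line mean. ES2 and MV3 sit highest and BE(2)C lowest in all 4 panels, and the dotted line separates the NEXTflex lines on the left from the lines prepared by the provider.

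Together the 4 members took 8.27% ± 0.171 of all assigned miRNA reads in ES2 and 6.48% ± 0.168 in MV3. In A549 they took 1.31% ± 0.0203 and in PANC1 1.33%. The share was 0.0487% ± 0.00849 in HepG2 and 0.00107% ± 0.00128 in BE(2)C. These shares span the lines as the 3p members do. The 3p members make up nearly all of the reads of the cluster in the NEXTflex lines and most of them in HepG2 and BE(2)C. In the HepG2 libraries they took 0.0389% and 0.0490% of all reads, out of 0.0427% and 0.0547% for the 4 members.

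The scale on which libraries are compared mattered most for HepG2, but it also changed the fold differences between NEXTflex lines. TMM scaling over all libraries raised every miRNA in HepG2 by 2.20 to 2.59 on the log2 scale and changed the other libraries by -0.91 to -0.03. On that scale ES2 exceeded HepG2 by 21.8-fold for hsa-miR-221-3p and by 29.6-fold for hsa-miR-222-3p, and both 3p members stayed below every NEXTflex library in HepG2. For hsa-miR-221-5p ES2 exceeded HepG2 by 4.79-fold with TMM and 3.65-fold with DESeq2 size factors, and for hsa-miR-222-5p by 32.1-fold with TMM. For hsa-miR-221-5p the order also changed, because HepG2 (228 and 262) then lay above A549 (177 and 228) and PANC1 (78.1), in units of TMM-scaled CPM. With DESeq2 size factors hsa-miR-221-5p in HepG2 overlapped A549. A549 stood above PANC1 for hsa-miR-221-3p by 1.28-fold with TMM, against 0.767-fold in CPM, and for hsa-miR-222-5p by 1.22-fold against 0.731-fold. The positions of A549 and PANC1 relative to each other are therefore not settled for these 2 members. For hsa-miR-222-3p ES2 exceeded A549 by 5.19-fold with TMM and 4.21-fold with DESeq2 size factors, against 6.47-fold in CPM. MV3 exceeded A549 by 2.96-fold and 2.49-fold, against 5.16-fold in CPM. ES2 exceeded MV3 by 1.75-fold and 1.69-fold, against 1.25-fold in CPM. HepG2 exceeded BE(2)C by 402-fold with TMM, against 52.5-fold in CPM.

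BE(2)C was the line with the lowest levels, and its 2 libraries differed widely from each other. hsa-miR-221-3p had 70 reads in replicate 1 and 3 in replicate 2, a 20.3-fold difference in CPM, and hsa-miR-222-3p had 70 and 8 reads, a 7.61-fold difference. hsa-miR-221-5p had 9 reads and 0 reads. Of 231 miRNAs that averaged at least 100 CPM in BE(2)C, 2 were more than 10-fold higher in replicate 1, hsa-miR-122-5p and hsa-miR-184, and the median fold was 0.754. The 3p members averaged only 4.88 and 5.27 CPM there, and miRNAs at such low levels were not compared between the replicates. hsa-miR-122-5p was at 823 CPM in replicate 1 and 5.96 in replicate 2, and blood cell hsa-miR-451a at 299 and 46.0. Blood cell hsa-miR-142-3p was at 1.33 and 0.459 CPM in BE(2)C, but at 326 and 286 CPM in ES2, the line with the highest levels of the cluster, where hsa-miR-451a was at 0.601 and 0. The part of RNA from other cells in the BE(2)C and ES2 values of the cluster was not tested. Without replicate 1, ES2 exceeded BE(2)C by 53635-fold for hsa-miR-221-3p and by 46170-fold for hsa-miR-222-3p, compared with 5038-fold and 10726-fold over both libraries.

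To place these levels among other miRNAs, 314 miRNAs whose mean reached 100 CPM in 1 or more of the lines were considered. Both BE(2)C libraries lay below every other library for 18 of them (5.73%), among which were all 4 members. Both HepG2 libraries lay below every NEXTflex library for 152 (48.4%), and again for all 4 members. The levels that chose the cluster are the levels counted here, so nothing is read from these counts. With TMM scaling 274 miRNAs passed the minimum, including 3 members, since hsa-miR-222-5p dropped below it. Of these, 37 (13.5%) were lowest in BE(2)C, the 3 members included, and 74 (27%) were lower in HepG2 than in every NEXTflex library, including both 3p members but not hsa-miR-221-5p.

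Other miRNAs widely described as raised in solid tumours did not all follow the cluster. Of 15 listed, 14 passed the minimum, and 4 of them were lowest in BE(2)C, namely hsa-miR-21-5p and the 3 members of the miR-183 cluster hsa-miR-182-5p, hsa-miR-183-5p and hsa-miR-96-5p. hsa-miR-21-5p, the most abundant of the list, was at 12605 ± 204 CPM in BE(2)C and 178119 ± 16328 in HepG2, and highest in A549 with 646036 ± 6097, the line in which hsa-miR-222-3p was 6.47-fold below ES2. hsa-miR-23a-3p was at 843 ± 492 CPM in BE(2)C and 14.9 ± 5.90 in HepG2. In HepG2, 12 of the 14 lay below every NEXTflex library in CPM and 5 with TMM scaling. Of the other miRNAs on the X chromosome, 28 of 164 passed the minimum. 1 of these 28, hsa-miR-224-5p, was lowest in BE(2)C, and 17 lay below every NEXTflex library in HepG2 (12 of 23 with TMM scaling). hsa-miR-98-5p, a let-7 family member, was the most abundant of them by the mean over the 6 lines, with its highest level in PANC1 (5595 CPM) rather than in ES2 (1483 ± 30.3). hsa-miR-532-5p was highest in BE(2)C (5642 ± 231 CPM) and lowest in ES2 (87.0 ± 8.23).

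The levels of hsa-miR-221-3p and hsa-miR-222-3p had a Pearson correlation of log2(CPM + 1) of 0.999 over the 11 libraries and 0.986 over the 7 NEXTflex libraries. Correlations here are a description over libraries that share their preparation within each set. Among the 314 miRNAs, those outside the cluster most like hsa-miR-222-3p over all libraries were hsa-miR-574-3p (0.97), hsa-miR-21-3p (0.93), hsa-miR-455-3p (0.93), hsa-miR-28-5p (0.93) and hsa-miR-29b-1-5p (0.93). The same 5 were most like hsa-miR-221-3p, with correlations from 0.92 to 0.96. Within the NEXTflex libraries hsa-miR-574-3p and hsa-miR-29b-1-5p stayed close to hsa-miR-221-3p (0.93 and 0.95) and hsa-miR-455-3p less so (0.56). In these libraries hsa-miR-28-5p was not close to it (0.06) and hsa-miR-21-3p ran opposite (-0.88). For hsa-miR-222-3p the values were 0.90, 0.92, 0.66, -0.02 and -0.81 in the same order. The likeness of hsa-miR-21-3p over all libraries thus rests on the low levels in HepG2 and BE(2)C. hsa-miR-29b-1-5p was at 928 CPM in ES2, 391 in MV3, 107 in A549, 0.875 in HepG2 and 0.612 in BE(2)C.

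**Figure D2:**
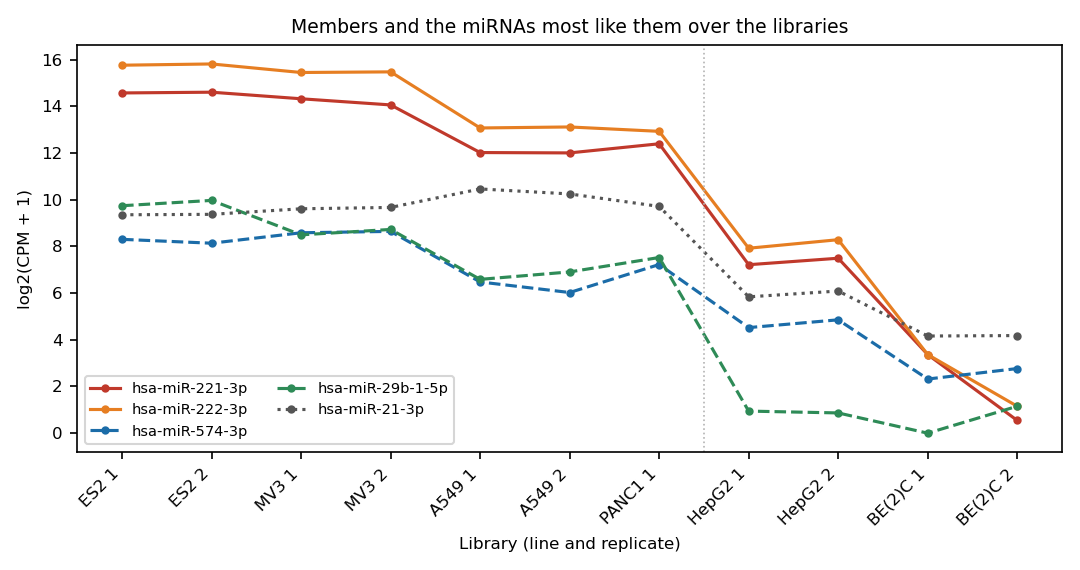
log2(CPM + 1) of both 3p members and of 3 of the miRNAs most like them (vertical axis) in the 11 libraries (horizontal axis, line and replicate). Dashed miRNAs follow the members within the NEXTflex libraries left of the dotted line as well, whereas dotted hsa-miR-21-3p is highest in A549.

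The ratio of the 2 hairpins was compared next, because both are read in the same library and their ratio does not depend on how libraries are scaled. hsa-miR-222-3p exceeded hsa-miR-221-3p 2.28-fold and 2.31-fold in ES2, 2.18-fold and 2.67-fold in MV3, 2.08-fold and 2.16-fold in A549 and 1.45-fold in PANC1, where the 95% interval from counting error was 1.43 to 1.46. In HepG2 it was 1.64-fold (1.54 to 1.74) and 1.74-fold (1.65 to 1.83). In BE(2)C the ratio was 1.00 (0.719 to 1.39) in replicate 1 and 2.67 (0.768 to 9.26) in replicate 2, which rests on 11 reads. PANC1 was thus lowest of the NEXTflex lines and the libraries of MV3 spanned the values of ES2. The ratio ranged over 0.74 on the log2 scale between the line means of the NEXTflex lines.

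Over the 7 NEXTflex libraries the difference between lines did not pass the threshold of 0.05 (exact permutation test of the F statistic over 105 assignments, p = 0.0667, smallest possible 0.00952, adjusted over the 2 tests of this ratio 0.133). The outcome depended on the library left out. The test passed the threshold without either MV3 library, but not without either library of A549 or ES2. Each of these runs left a line with 1 library. Without the single PANC1 library the exact permutation test gave p = 0.467 over 15 assignments, with a smallest possible p of 0.0667. Over all 11 libraries the exact permutation test gave p = 0.605 over 10395 assignments, with a smallest possible p of 0.0001, and leaving out BE(2)C, whose ratios rest on few reads, gave p = 0.0116, an alternative chosen after seeing the data. A limma F test of 26 neighbouring hairpin pairs within 10 kb in the NEXTflex libraries called 8 of them (30.8%), and MIR222 with MIR221 was not among these (adjusted p = 0.0678). Its range of 0.74 compared with a median of 1.22 over the 26 pairs, and 6 pairs had a smaller range.

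**Figure D3:**
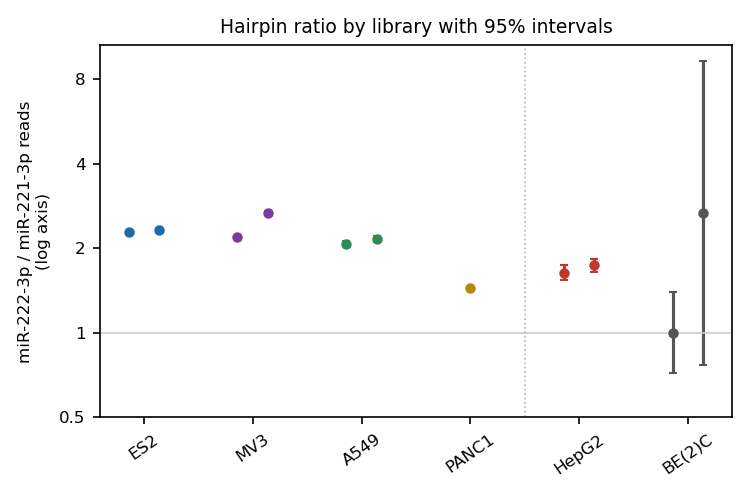
Reads of hsa-miR-222-3p divided by reads of hsa-miR-221-3p (log axis) by cell line, with 1 point per library and 95% intervals that cover counting error. PANC1 (1.45) and HepG2 (1.64 and 1.74) sit below ES2, MV3 and A549 (2.08 to 2.67), and the BE(2)C intervals are wide.

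Both hairpins gave mostly 3p reads in the NEXTflex lines, but to a different degree. The 5p share of MIR221 reads was 6.36% and 5.50% in ES2, 3.91% and 5.67% in MV3, 4.18% and 5.78% in A549 and 2.50% in PANC1 (95% Wilson interval 2.37 to 2.64). The 5p share of MIR222 was 0.201% and 0.169% in ES2, 0.152% and 0.143% in MV3, 0.10% and 0.0821% in A549 and 0.14% in PANC1. The lines with 2 libraries overlapped for MIR221, and for MIR222 both A549 libraries lay below those of ES2 and MV3. A limma F test of log2 5p over 3p covered 65 hairpins. Each passed a minimum for the reads of both arms summed in every library and for the mean of the weaker arm over the libraries. The weaker arm could thus have few reads in a given library. This test called 5 hairpins (7.69%) between the NEXTflex lines and 20 at an unadjusted p under 0.05. Neither MIR221 (adjusted p = 0.197) nor MIR222 (adjusted p = 0.247) was called, and their ranges between line means, 1.29 and 0.99, compared with a median of 1.33 over the 65 hairpins. Pairwise contrasts in the same fit called 1 hairpin for A549 against ES2 (1.54%), 1 for A549 against MV3 and 4 for ES2 against MV3 (6.15%), with neither member hairpin among them. Of 12 hairpins of the tumour list that could be tested, 3 were called, those of hsa-miR-17, hsa-miR-20a and hsa-miR-25.

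In HepG2 the 5p share of MIR221 was 20.5% (95% Wilson interval 18.8 to 22.2) and 24.1% (22.6 to 25.7), above all NEXTflex libraries. The 5p share of MIR222 was 0.209% (0.0957 to 0.455) and 0.132% (0.0565 to 0.309), against 0.0821% to 0.201% in the NEXTflex libraries, so that the intervals overlapped these values. In BE(2)C replicate 1 the share of MIR221 was 11.4% (6.11 to 20.3), from 9 of 79 reads, and in replicate 2 it was 0 of 3 reads. The contrast of HepG2 with the mean of the NEXTflex lines was added after the shares were seen. In the limma fit without BE(2)C it gave log2 5p over 3p higher by 2.66 ± 0.22 (SE) for MIR221 (adjusted p = 7.35e-05) and 0.40 ± 0.31 for MIR222 (adjusted p = 0.273). Of 56 hairpins, 40 (71.4%) were called, 20 of them with a higher 5p share in HepG2 (35.7%) and 20 with a lower one, and the median difference was 0.29. A larger difference in the same direction than that of MIR221 was found for 7 hairpins. Of 11 hairpins of the tumour list, 8 were called, 6 with a higher 5p share in HepG2, such as hsa-miR-21 (2.75 ± 0.26), and 2 with a lower one, hsa-miR-25 (-3.81 ± 0.20) and hsa-miR-106b (-2.44 ± 0.14). In this contrast the line cannot be told apart from its library preparation.

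**Figure D4:**
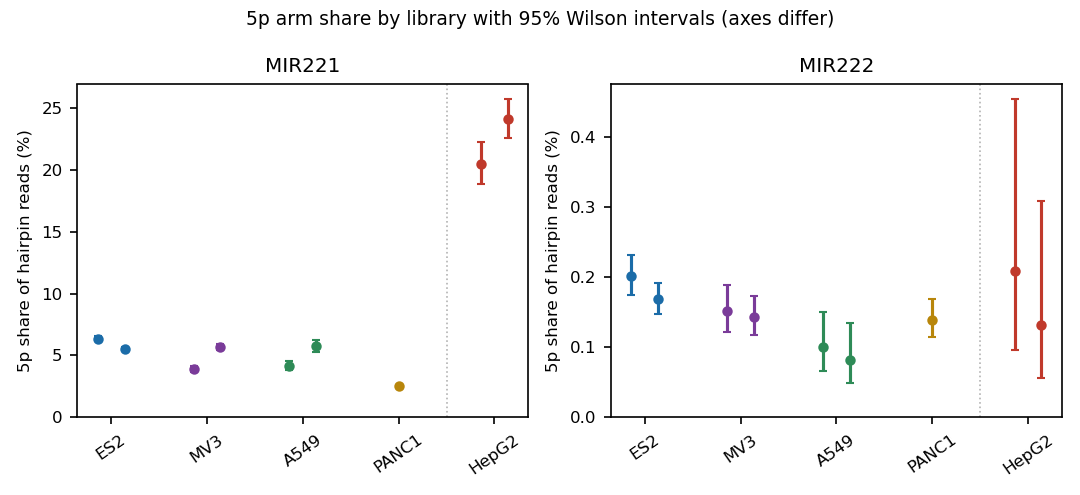
Share of 5p reads among all reads of MIR221 (left) and MIR222 (right) in percent, by cell line without BE(2)C, with 1 point per library and 95% Wilson intervals. MIR221 reaches 20.5% and 24.1% in HepG2 against at most 6.36% in the NEXTflex lines, and MIR222 lies between 0.0821% and 0.209%.

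**Figure D5:**
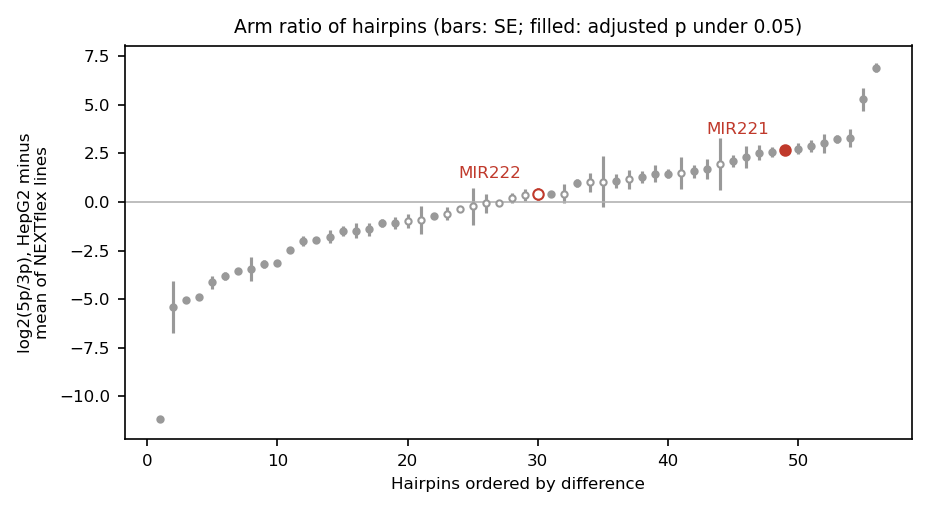
Difference of log2 5p over 3p between HepG2 and the mean of the NEXTflex lines (vertical axis) for the 56 tested hairpins in order of size (horizontal axis), with SE bars and filled points for an adjusted p under 0.05. MIR221 is at 2.66 and MIR222 at 0.40, with 20 hairpins called in each direction.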

How the data were processed

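Small RNA was sequenced from 11 libraries of 6 cell lines. Per the labels, the submitters' processing notes name cutadapt 1.14, Bowtie2 2.3.2, SAMtools 1.5, featureCounts 1.5.3, edgeR 3.30.3 and the build hg38. Strand and multi-match settings are not given in the sources used here. The authors deposited CPM for PANC1 and, for the other 5 lines, a scaled signal, which is CPM divided by a factor set within each table. In every library 100% of the nonzero values were multiples of 1 read (tolerance 0.01 reads), so whole reads were recovered and CPM recomputed per library. The design had assumed CPM throughout. Replicate libraries were no copies of each other (chi-square per degree of freedom from 8.53 in ES2 to 849 in BE(2)C).

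Genomic copies of a mature miRNA were summed. Arm ratios, log2((5p reads + 0.5)/(3p reads + 0.5)), were fitted with limma 3.58.1 (R 4.3.3; moderated F test with trend, Benjamini-Hochberg over all hairpins), after testing on simulated data. edgeR 4.0.16 and DESeq2 1.42.0 served as alternatives. Replicates were described as biological by the study. Named miRNAs were the 4 members, the 5 most correlated miRNAs of each 3p member, the lists given and hairpins of the tumour list. The members and lists were chosen with earlier results of these data known. Intervals cover counting error only.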

Additional observations from a re-analysis of the deposited data

How the results depend on the processing

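Of 170 values recomputed under an alternative, 145 were labelled the same, 18 moved and 7 came to pass the threshold. The same meant the same side of the threshold, within the spread or, for counts, within a fixed fold. A reversal was looked for only in the arm contrast of HepG2, and none was found. Some of the 145 could not have moved. Arm shares of a line without either of its 2 libraries always stay within their spread. Level ratios without a library of A549, MV3 or HepG2 stay unchanged, as these lines were neither highest nor lowest. Leaving out single libraries gave ratios of the highest to the lowest line from 2643 to 53635 for hsa-miR-221-3p, 6068 to 46170 for hsa-miR-222-3p, 1296 to 3380 for hsa-miR-221-5p and 228 to 524 for hsa-miR-222-5p, whose ratio to the floor was 566 with TMM. The TMM ratio of hsa-miR-222-5p moved beyond the spread, and among the ratios with a single library left out, those that did so were without BE(2)C replicate 1 for both 3p members, without BE(2)C replicate 2 for hsa-miR-221-5p and without either for hsa-miR-222-5p. With TMM, 37 miRNAs were lowest in BE(2)C and 74 lower in HepG2 than in every NEXTflex library. The arm ratio test of the NEXTflex lines called 5 of 65 hairpins, but 12 with 5 reads added to each arm, 13 of 28 with a stricter read filter, 8 of 116 with a looser one, 16 with edgeR, 39 of 56 with HepG2 included, and 3 to 15 when single libraries were left out. The cause was not tested. MIR221 and MIR222 were called in none of these except MIR221 with HepG2 included (adjusted p = 0.000658 in limma). For HepG2 against the NEXTflex lines, MIR221 was called under every alternative run, at 2.39 to 2.82 without single libraries. MIR222 was called with 5 reads added to each arm (1.09) and under no other. In HepG2 hsa-miR-222-5p had only 6 and 5 reads, about as many as were added. The p of the hairpin ratio (exact permutation test) ran from 0.0222 to 0.467 without single libraries for the NEXTflex lines, where leaving out PANC1 cannot give less than 0.0667, and from 0.00233 to 0.792 for all lines, and was 0.0116 without BE(2)C. Replicate numbers were not taken to pair the samples. The correlation of same-numbered deviations over 314 miRNAs ran from -0.02 to 0.14 between lines, highest for BE(2)C with HepG2. Low correlations cannot exclude a pairing. With the replicate block, 4 hairpins were called for the arm ratio, MIR221 in HepG2 was at 2.63, and the hairpin ratio had p = 0.125 in an exact permutation test. The arm contrast of HepG2 with its alternatives, the hairpin ratio without BE(2)C, and the counts without single BE(2)C or HepG2 libraries were chosen after seeing the data.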
